A study of Mus musculus with 6 samples.

Results

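The genes described are the cytotoxic granule genes, 8 genes whose products are stored in or released with the killing granules of lymphocytes, or signal death from the lymphocyte surface: the granzymes Gzma, Gzmb, Gzmc and Gzmk, the pore former Prf1, the granule proteins Nkg7 and Ctsw, and the death ligand Fasl. They were chosen by name. Of 22823 genes and unnamed transcripts tested in the series, 6 were members, since Gzmb and Fasl were too dim to be tested; 9 probes carried the 8 genes. The samples were whole skin of 6 untreated male mice, profiled on 1-colour Agilent arrays. They were labelled as telogen, when hair follicles rest between growth phases. The aim was to learn what Sox4 contributes to resting skin. Sox4 was conditionally deleted in the skin of 3 mice (KO, aged 17, 18 and 16 weeks for replicates 1, 2 and 3), and 3 mice were wild type (WT, aged 20, 19 and 18 weeks). All were of a mixed C57Bl6/129Sv background. The labels do not name the promoter that drives the deletion. WT mice were older in every pairing except for KO replicate 2 and WT replicate 3, both 18 weeks old.

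Cytotoxic lymphocytes, which include CD8 T cells, natural killer cells and many gamma-delta T cells, keep perforin and granzymes in acidic granules bound to a proteoglycan. On contact with a target cell the granules fuse with the membrane, perforin opens pores, and granzymes, which are serine proteases, enter and cut proteins of the target. Mouse epidermis holds a resident layer of gamma-delta T cells that can kill stressed keratinocytes by this route, and Fas ligand offers a second route through the death receptor Fas.

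In KO skin the granule genes lay lower. Every KO skin had less Prf1, Gzmc, Ctsw and Nkg7 signal than every WT skin, with log2 fold changes of −0.52 to −1.02, which are 1.43-fold to 2.03-fold lower levels. Gzma had the largest difference, −1.75, but ranged so widely among WT skins that the groups overlapped, and Gzmk differed by −0.12 and overlapped too. None of the 6 tested members passed the threshold over all genes (limma, Benjamini-Hochberg adjusted p under 0.05), which 0.0219% of all genes passed, 0.0175% in the lower direction. At an unadjusted p under 0.05, 5 of the 6 were lower in KO, against 5.5% of all genes. Groups did not overlap, with KO lower, for 4 of 6 members and for 11.8% of all genes. Negative fold changes were found for all 6 tested members and for 64.1% of all genes, whose median was −0.085. Gzma was tested only because it was well above background in every WT skin, so the tested members are not a free sample of the 8. In whole skin, fewer cells of a type and less RNA per cell cannot be told apart.

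Sox4 itself was low in the skins labelled KO, at −2.94, −2.88 and −3.05 in KO replicates 1, 2 and 3 against 0.41, 0.65 and 0.75 in WT, in log2 units relative to each array's 75th percentile, the scale used for all levels below. Its difference was −3.56 (SE 0.13, n = 3 per group, limma adjusted p = 0.00135). The keratinocyte genes Krt5 and Krt14 averaged 8.88 ± 0.04 and 6.57 ± 0.18 in KO and 9.10 ± 0.32 and 6.66 ± 0.25 in WT (SD, n = 3), among the bright genes of these arrays, so the skin label was borne out. All 8 tested genes of the keratinocyte and dermis list had negative fold changes (median −0.18). KO was lower without overlap for 3 of the 8, against 11.8% of all genes. The share of probes well above background ran from 52.1% in KO replicate 2 to 66.4% in KO replicate 1. With 3 arrays a group, their number sets the precision of the values. The arrays lay on 3 slides: slide 1 held KO replicate 3 and WT replicate 1, slide 2 held KO replicate 1 with WT replicates 2 and 3, and slide 3 held KO replicate 2 alone.

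Promoter sequences are shown for 3 members that lay lower in KO and for Gzmk, which differed least. Several members, though not Gzmk or Fasl, carry the same short motif upstream of their start sites. Gzmb, which carries it too, was too dim to be compared. Whether the motif goes with the differences was not tested. RefSeq promoter windows (build GRCm38.p6) were matched for 7 of the 8 members, and the 250 bases before the start site were searched on both strands for the letters TGTGGT (the core recognised by RUNX factors), GGTGTG (T-box factors), TTCNNNGAA (STAT factors), and AACAAT and ACAAAG (SOX factors). No window was matched for Ctsw. Bases that belong to an annotated transcript of the same gene were not printed. Capitals mark every match to these letters, 5′ to 3′ on the strand of the gene.
Prf1, chr10:61297586-61297750, plus strand: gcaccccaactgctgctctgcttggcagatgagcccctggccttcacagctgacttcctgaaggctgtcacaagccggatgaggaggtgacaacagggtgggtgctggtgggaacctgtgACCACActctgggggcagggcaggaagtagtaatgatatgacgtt
Nkg7, chr7:43436888-43437137, plus strand: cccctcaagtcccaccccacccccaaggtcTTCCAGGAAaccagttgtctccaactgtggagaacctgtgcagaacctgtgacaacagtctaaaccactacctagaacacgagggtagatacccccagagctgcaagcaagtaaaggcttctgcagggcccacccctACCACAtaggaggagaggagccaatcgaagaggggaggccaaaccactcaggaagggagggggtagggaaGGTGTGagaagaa
Gzma, chr13:113100982-113101231, minus strand: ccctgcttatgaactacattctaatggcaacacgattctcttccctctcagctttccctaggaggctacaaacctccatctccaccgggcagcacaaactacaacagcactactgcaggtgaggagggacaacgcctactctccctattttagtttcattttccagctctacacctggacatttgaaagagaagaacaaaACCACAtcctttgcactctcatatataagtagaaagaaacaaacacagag
Gzmk, chr13:113180966-113181215, minus strand: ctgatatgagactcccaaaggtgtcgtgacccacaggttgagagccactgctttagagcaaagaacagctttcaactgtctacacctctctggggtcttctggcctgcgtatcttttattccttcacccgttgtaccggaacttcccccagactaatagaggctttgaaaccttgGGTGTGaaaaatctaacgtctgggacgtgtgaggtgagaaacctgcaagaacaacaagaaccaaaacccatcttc

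The RUNX letters were present upstream of 5 of the 7 members, Prf1, Nkg7, Gzma, Gzmb and Gzmc, against 14.0% of 32851 promoters of the same length. In Gzma they began 50 bases and in Nkg7 83 bases before the start. Gzmb held the motif at 34 and at 93 bases before the start. Gzmc held it at 108 and at 174 bases before the start used, but that whole window lay inside the annotated gene. The windows of Gzmk and Fasl did not hold it. The T-box letters were found in 3 of 7 members, Nkg7, Gzmk and Fasl, against 16.3% of all promoters, and the STAT letters in Nkg7 alone, against 7.02%. Neither SOX string was found in any of the 7 windows, whereas AACAAT was found in 9.42% and ACAAAG in 16.5% of all promoters. A match is a description of the letters, and its absence says only that the letters are not in this window.

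Perforin, encoded by Prf1, forms the pores through which granzymes enter. Its level was −1.14, −1.27 and −0.95 in KO replicates 1, 2 and 3, against −0.45, −0.39 and −0.30 in the WT replicates. The highest KO skin lay 0.50 below the lowest WT skin, so the groups were clearly apart. The difference was −0.74 (SE 0.13, 95% interval −1.04 to −0.43, n = 3 per group), which is 1.67-fold lower, with a limma adjusted p of 0.257. By unadjusted p, 0.000877, it ranked 78 of all genes tested. An exact two-sided permutation over arrays gave p = 0.1, the smallest that 3 against 3 arrays allow. Within slide 1 the difference was −0.50 and within slide 2 −0.79, and a fit with slide as a block gave −0.67 (limma adjusted p = 0.56).

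Nkg7 is a membrane protein of the granules that takes part in their release. Its brighter probe read 1.80, 1.54 and 2.18 in KO skins and 2.46, 2.25 and 2.35 in WT skins, so KO replicate 3 lay just below the lowest WT skin. The difference was −0.52 (SE 0.18, 95% interval −0.96 to −0.08, limma adjusted p = 0.371). The dimmer probe of the gene read −1.26, −1.42 and −1.15 in KO and −0.36, −0.10 and −0.11 in WT, with a wide gap between the groups. Fitted by itself among 30082 probes, it differed by −1.09 (SE 0.14, limma adjusted p = 0.145). Both probes carry the same RefSeq accession and point the same way, but the size of the difference depended on the probe. For the brighter probe the difference was −0.29 within slide 1, −0.51 within slide 2 and −0.41 with slide as a block (limma adjusted p = 0.586).

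Ctsw, cathepsin W or lymphopain, is a papain-like protease made by cytotoxic lymphocytes. Its level was −0.48, −0.58 and −0.35 in KO skins, against −0.31, 0.21 and 0.33 in WT skins. WT replicate 1 lay 0.04 above KO replicate 3, with which it shared slide 1, while the other WT skins were well above all KO skins. The difference was −0.55 (SE 0.19, 95% interval −1.01 to −0.09, limma adjusted p = 0.368). Within slide 1 it was −0.04 and within slide 2 −0.75, and with slide as a block −0.45 (limma adjusted p = 0.691). Leaving out WT replicate 1 gave −0.74 (limma adjusted p = 0.0786), and age as a covariate gave −0.98 (limma adjusted p = 0.17).

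**Figure D1:**
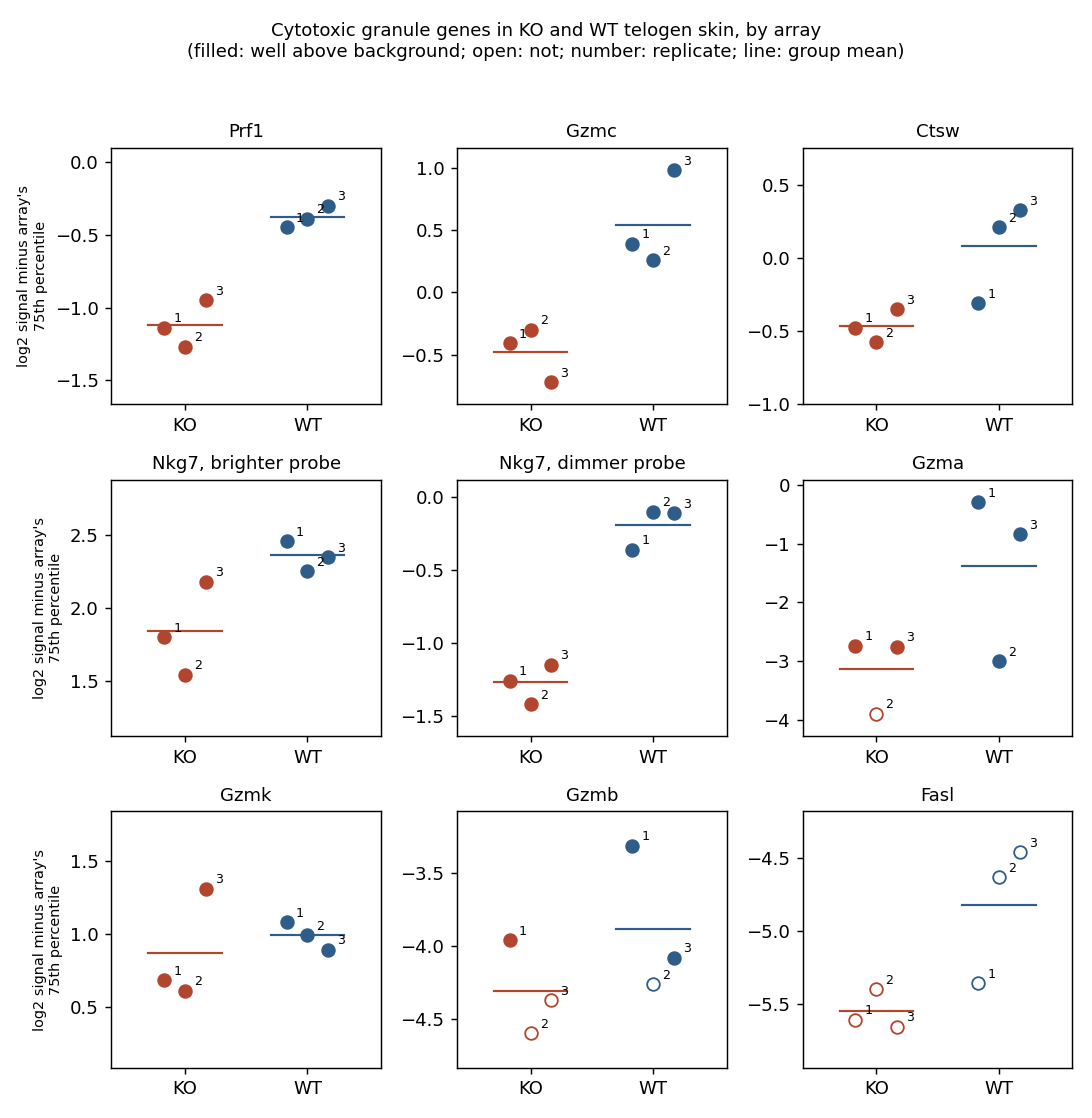
Level of each granule gene on each array, as log2 signal minus the array's 75th percentile (vertical axis), in KO (left) and WT (right). Points are arrays numbered by replicate, open where the probe was not well above background, and lines are group means. Prf1, Gzmc and the dimmer Nkg7 probe separate the groups, the lowest WT value of Gzma (−3.00) lies among the KO values, and Fasl is open on every array.

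Among the granzymes, Gzmc, a serine protease of the chymase-like granzyme cluster on chromosome 14, lay lower in every KO skin. Its level was −0.41, −0.30 and −0.72 in KO replicates 1, 2 and 3, against 0.39, 0.26 and 0.98 in the WT replicates. The groups did not overlap, and WT replicate 3 stood highest. The difference was −1.02 (SE 0.22, 95% interval −1.55 to −0.48, limma adjusted p = 0.274), which is 2.03-fold lower. It was much the same within slide 1 (−1.11), within slide 2 (−1.03) and with slide as a block (−1.07, limma adjusted p = 0.56). Other granzymes of the same cluster were dim: Gzmd, Gzmg and Gzmn were not well above background on any array, Gzme was so on 1 WT array and no KO array, and Gzmf on 2 WT arrays and no KO array. The deposited files hold no probe sequences, so hybridisation of RNA from neighbouring granzymes to the Gzmc probe was not tested.

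Granzyme A, encoded by Gzma, is a tryptase-like granzyme and lies next to Gzmk on chromosome 13. Its level was −2.74, −3.90 and −2.76 in KO skins, against −0.29, −3.00 and −0.84 in WT skins. WT replicates 1 and 3 were far above every KO skin, while WT replicate 2 was below KO replicates 1 and 3, and KO replicate 2 was not well above background. The difference was −1.75 (SE 0.72, 95% interval −3.49 to −0.02, limma adjusted p = 0.422), from means of −3.13 ± 0.66 in KO and −1.38 ± 1.43 in WT (SD, n = 3). Without WT replicate 2 it was −2.56 (limma adjusted p = 0.452), and without WT replicate 1 −1.21 (limma adjusted p = 0.423). With normexp background correction it was −1.10 after quantile normalization and −1.15 after scaling to the 75th percentile (limma adjusted p = 0.355 and 0.343). Within slide 1 it was −2.46, within slide 2 −0.82, and with slide as a block −1.52 (limma adjusted p = 0.704).

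Gzmk, a tryptase-like granzyme made by subsets of T cells, had the smallest difference of the tested members. Its level was 0.68, 0.61 and 1.31 in KO skins, against 1.08, 0.99 and 0.89 in WT skins. KO replicate 3 was the highest of all 6 skins and the other KO skins were the lowest, so the groups overlapped on both sides. The difference was −0.12 (SE 0.21, 95% interval −0.62 to 0.38, limma adjusted p = 0.797), an interval that still allows a decrease close to that of Prf1. The sign depended on the slide, with 0.24 within slide 1, −0.26 within slide 2 and −0.05 with slide as a block (limma adjusted p = 0.945). It was −0.38 with age as a covariate (limma adjusted p = 0.598) and −0.34 without KO replicate 3 (limma adjusted p = 0.337).

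Granzyme B, the best known death-inducing granzyme, and Fas ligand were at the edge of detection or below it. Gzmb read −3.96, −4.60 and −4.37 in KO skins and −3.31, −4.26 and −4.08 in WT skins, and was well above background in KO replicate 1 and in WT replicates 1 and 3. These values overlapped between the groups, and the gene was left out of the main comparison as too dim; a fit without that filter gave −0.43 (SE 0.31, limma adjusted p = 0.798). Fasl read −5.61, −5.40 and −5.66 in KO and −5.36, −4.63 and −4.46 in WT, and was not well above background on any array. No difference is given for Fasl, since its signal cannot be told from background in either group.

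**Figure D2:**
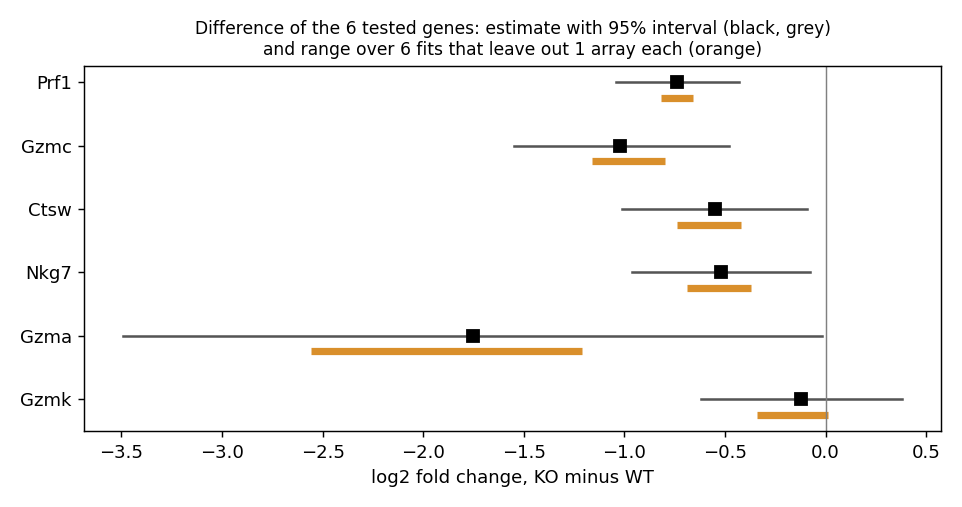
Log2 fold change, KO minus WT (horizontal axis), of the 6 tested granule genes. Black squares are limma estimates from 3 against 3 arrays, grey lines their 95% intervals, and orange bars the range over 6 fits that each leave out 1 array. Prf1 and Gzmc lie farthest from 0 relative to their intervals, Gzma has the widest interval, and the interval of Gzmk spans 0.

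The lower levels were set beside those of the T cell receptor complex, whose genes mark the lymphocytes in these samples. The 4 CD3 chains Cd3d, Cd3e, Cd3g and Cd247 averaged −1.12, −1.11 and −1.08 in KO skins and −0.20, 0.00 and 0.20 in WT skins, as log2 differences from the WT mean. Cd247 was not well above background in KO replicates 2 and 3, so its share of these means is in part background signal. The members' differences from the WT mean, less that of the CD3 chains on the same array, averaged 0.37 ± 0.15 in KO against 0 ± 0.13 in WT for Prf1 (SD, n = 3). They averaged 0.56 ± 0.10 in KO against 0 ± 0.17 in WT for Ctsw and 0.98 ± 0.37 against 0 ± 0.29 for Gzmk. For these 3 genes all KO values lay above all WT values (exact permutation p = 0.1, the smallest possible), so their levels were lowered less than those of the CD3 chains in these 6 skins. By unadjusted limma p, Cd3g, Cd3e, Cd3d and Cd247 ranked 5, 25, 39 and 484 of 22823 genes tested, whose median difference was −0.085. The chains were picked with earlier results of these data known. A gene with little change, such as Gzmk, lies above them in KO, so this separation is not particular to the members. For the brighter Nkg7 probe the means were 0.58 ± 0.31 in KO and 0 ± 0.27 in WT with overlap (exact permutation p = 0.2). The dimmer Nkg7 probe, with a difference of −1.09, was not set against the CD3 chains, whose KO mean was −1.1. For Gzmc the means were 0.09 ± 0.24 in KO and 0 ± 0.26 in WT (exact permutation p = 0.6), and for Gzma −0.65 ± 0.66 in KO and 0 ± 1.48 in WT (exact permutation p = 0.5). These are 6 comparisons, and after Benjamini-Hochberg adjustment over 6 none could reach the threshold.

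**Figure D3:**
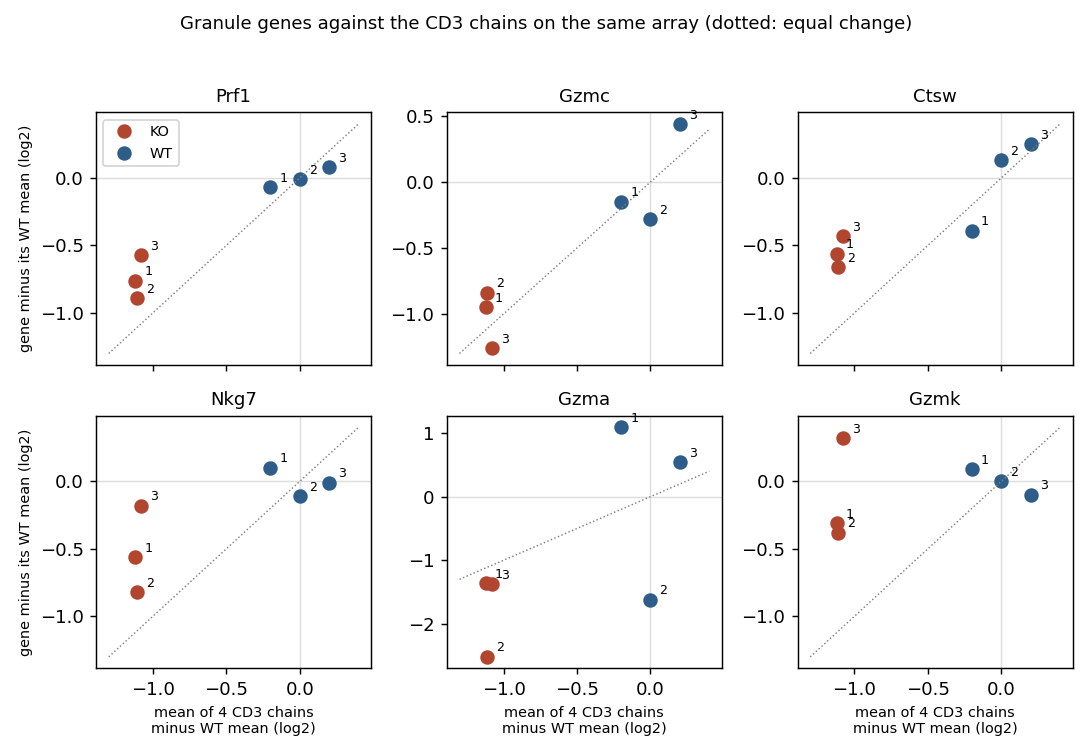
Each panel plots a granule gene's log2 level minus its WT mean (vertical axis, with its own range) against the mean of the 4 CD3 chains minus their WT mean on the same array (horizontal axis). Points are arrays numbered by replicate, KO in red and WT in blue, and the dotted line marks equal change. Gzmc lies along the line, whereas the KO points of Prf1, Ctsw and Gzmk lie above it.

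Of 16 genes listed for the T cell receptor and its co-receptors, 14 were tested. All 14 were negative (median −0.76), against 64.1% of all genes. KO was lower without overlap for 12 of the 14, against 11.8% of all genes, while Cd4 (−0.27) and Thy1 (−0.07) overlapped. Cd247 of this list entered only because it was well above background in every WT skin. Only Cd3g passed over all genes (−1.32, limma adjusted p = 0.0464). The kinase gene Zap70 had −1.10 (limma adjusted p = 0.167). Natural killer type receptors had a median of −0.51 over 9 tested of 17 listed, with 7 negative and 2 positive, Klra1 (0.22) and Cd244a (0.13). KO was lower without overlap for 6 of the 9, against 11.8% of all genes. None passed by limma, and 5 were lower in KO at an unadjusted p under 0.05, against 5.5% of all genes. Of the 9, Kir3dl1, Klra7 and Klrg1 entered only because they were well above background in every WT skin, so the count and the median, which is the value of Klrg1, are no free sample of the list. Klrd1 had −1.34 and Klrb1b −1.38 (limma adjusted p = 0.0608 and 0.0768). Kir3dl1, well above background on 1 KO array, had −2.27 (limma adjusted p = 0.0608), a difference taken in part against background signal. For comparison, the median of the 6 tested granule genes was −0.64. The genes that define the classical cytotoxic cells were dim: Cd8a was well above background on 2 KO and 1 WT arrays, Cd8b1 on 2 KO and 2 WT arrays, and the natural killer receptor gene Ncr1 on 1 KO and 1 WT array. The factor gene Eomes was so on 1 KO array and no WT array.

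The machinery around the granule genes was read from a longer list. Of 33 listed partners, other granzymes, granule proteins, release factors, inhibitors, and death ligands and receptors, 27 were tested. Their median was −0.21, with 22 negative and 5 positive, where 64.1% of all genes were negative. None passed by limma. At an unadjusted p under 0.05, 1 was lower, against 5.5% of all genes, and 1 was higher. Cst7, cystatin F, an inhibitor of granule cathepsins, read −2.27, −1.69 and −2.06 in KO skins, against −1.44, −1.41 and −0.76 in WT skins. It was lower in every KO skin, with a difference of −0.80 (SE 0.24, limma adjusted p = 0.313). Srgn, the serglycin core protein that binds granzymes, differed by −0.22, as did Ctsc, the peptidase that activates them, without overlap for either (limma adjusted p = 0.504 for both). Stx11, needed for granule fusion, had −0.37 and the cytokine gene Tnf −0.36 (limma adjusted p = 0.462 and 0.479), with overlap between the groups. Gzmm, a granzyme of natural killer cells, had 0.10, Ifng 0.30 and the death receptor gene Fas 0.07, all overlapping.

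Of 18 listed transcription factors and cytokine receptors known to act on cytotoxic genes, 15 were tested, with a median of −0.19, 11 negative and 4 positive. None passed by limma. At an unadjusted p under 0.05, 3 were lower, against 5.5% of all genes, and 1 was higher. Il2rb, the receptor chain shared by interleukins 2 and 15, read −2.30, −2.51 and −1.65 in KO skins, against −1.04, −1.17 and −1.03 in WT skins. The gap between the groups was wide, and the difference was −1.07 (SE 0.23, limma adjusted p = 0.274). Il15ra (−0.38) and the factor Prdm1 (−0.34) were lower without overlap. Stat4, a factor downstream of interleukin 12, lay the other way, at −1.84, −2.38 and −2.52 in KO skins against −3.19, −3.25 and −3.03 in WT skins (difference 0.91, limma adjusted p = 0.274). Among the RUNX and T-box factors on the list, Runx1 differed by 0, Runx3 by −0.19 and Tbx21 by 0.18, all overlapping. Xcl1, a chemokine made by cytotoxic lymphocytes, and Cxcr6, a receptor of resident T cells, differed by −1.78 and −0.67 without overlap (limma adjusted p = 0.228 and 0.274). Both come from a list of 11 residence and homing genes, of which 9 were tested (median −0.23, 7 negative and 2 positive). KO was lower without overlap for 3 of the 9, against 11.8% of all genes, and higher without overlap for 1, Itga1 (0.15). Ccr8 had 0.57 and Cd69 −0.01, both overlapping.

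**Figure D4:**
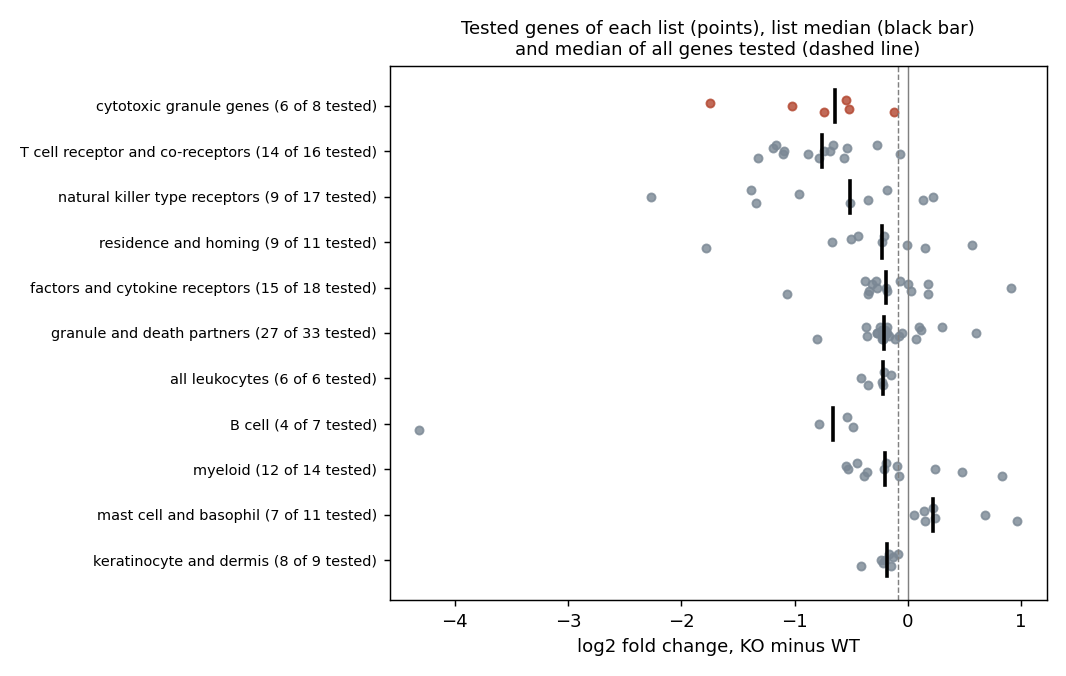
Log2 fold change, KO minus WT (horizontal axis), of the tested genes of each list drawn (points), with the list median (black bar) and the median of all genes tested (dashed line at −0.085). By median, granule genes (−0.64), T cell receptor genes (−0.76), natural killer type receptors (−0.51) and B cell genes (−0.66) lie left of the other lists drawn, and mast cell genes (0.22) lie right of 0. The skeletal muscle and hair shaft lists, with medians of 1.82 and 3.55, are not drawn.

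Markers of other cells were read on the same arrays, each list scored as the median over its genes of the log2 difference from the WT mean. Genes of leukocytes in general scored −0.37, −0.32 and −0.15 in KO skins and −0.06, −0.10 and 0.19 in WT skins, and all 6 of them were negative (median −0.22). Ptprc, the pan-leukocyte phosphatase CD45, differed by −0.21 without overlap. Mast cell genes, which mark another granule-bearing cell, scored 0.34, 0.34 and 0.17 in KO and −0.03, −0.42 and 0.51 in WT, were positive for 7 of 7 tested, and overlapped between the groups, while Ms4a2 and Mcpt8 of that list were not well above background on any array. B cell genes scored −0.70, −0.86 and −0.47 in KO and −0.10, −0.10 and 0.31 in WT. All 4 tested of 7 listed were lower in KO at an unadjusted limma p under 0.05, against 5.5% of all genes. Jchain entered only through the WT skins, being well above background on 1 KO array. Myeloid genes scored −0.32, −0.33 and −0.30 in KO and −0.18, 0.12 and 0.24 in WT. Of 12 tested, 5 were lower in KO without overlap, against 11.8% of all genes, and 3 were positive. Cd163, which had the smallest unadjusted p of the list, was higher in every KO skin (0.83, limma adjusted p = 0.274). The B cell and myeloid lists both scored lower in every KO skin than in any WT skin. The part of these lists in the results was not tested. All 15 skeletal muscle genes had positive fold changes, with scores of 1.76, 2.06 and 1.54 in KO skins and 1.13, −0.33 and −0.78 in WT skins. With that score as a covariate the differences were −0.56 for Prf1, −0.76 for Gzmc, −0.51 for Nkg7, −2.61 for Gzma, −0.12 for Gzmk and 0.07 for Ctsw (limma adjusted p = 1 for each), so that of Ctsw changed sign. Hair shaft genes, a list of growing hair markers, scored 5.92, 5.03 and −0.05 in KO skins and −0.11, 0.29 and −0.14 in WT skins. Krt71 of that list read 7.22 and 6.73 in KO replicates 1 and 2, against −2.27 in KO replicate 3. The telogen label was thus not borne out by these markers in KO replicates 1 and 2. The part of the hair genes in the results was not tested.

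Over the 6 arrays, the mean of the tested members relative to their own averages was −0.36, −0.63 and −0.19 in KO skins, against 0.50, 0.08 and 0.59 in WT skins. Of 14317 other named genes, the profiles most like it were those of Evl, an actin regulator (Pearson r = 0.996), Ehmt1, a histone methyltransferase (0.993), Hltf, a chromatin remodeller (0.992), Prelid2 (0.991), Itgax, the integrin CD11c (0.99), and Adam8, a leukocyte metalloprotease (0.989). After the mean of each group was removed, r lay between 0.95 and 0.98. These values describe 6 arrays that share their scaling, and the mean is weighted toward Gzma, the member with the widest range.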

How the data were processed

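Skin RNA of 6 mice, copied into Cy3-labelled RNA, was hybridised to 1 array per animal; ages differ within each group, so arrays were taken as separate animals. Spot intensity values were deposited by the authors as output of Agilent Feature Extraction 11.5.1.1, background-subtracted and detrended but not normalized between arrays, per the file headers. Other deposited columns are flags (0 or 1) for signal over background, saturation (none found) and outliers.

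The authors also deposited a log2 value table with a median of 6.80 in each of 6 columns. The submitters' processing notes name limma, and its scale and centring are otherwise not stated. Over 30082 probes, with probe means removed, each column headed KO followed the WT array of the same replicate number and each column headed WT the KO array (r of 0.887 to 0.931, against −0.583 to −0.192 with the array of the heading). Sox4 was low on the arrays whose scanner files are labelled KO, so the scanner files were used and the table entered no comparison.

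Processed signals were divided by the 75th percentile of all non-control probes of the array (379.8 to 605.5 units) and put on the log2 scale. Spots of a probe were averaged without outliers, and 31 of 55681 probes had none left on some array. A RefSeq table (GRCm38.p6) named 27497 probes by unversioned accession. The array grid uses mm9, so probes were not placed by coordinates of that table. Its gene bounds were used for the promoter windows, to leave out bases inside the annotated gene. A probe was kept if all arrays of either group read it well above background, and the brightest stood for its gene. The comparison used limma 3.58.1 (R 4.3.3), two-sided, without covariates, with Benjamini-Hochberg adjustment over 22823 genes and transcripts and a threshold of 0.05, and was tested on simulated data. Besides members and Sox4, the rule named up to 4 genes of each list by smallest p and the 6 named genes most like the members' mean, passing over predicted genes and clones; other genes were named for their role after their values were seen. Members and lists were chosen with earlier results of these data known. The planned normexp alternative used the median spot signal, the column these files hold. The other alternatives changed scaling, filter, probe choice, slide, replicate number, age, muscle score and the arrays included.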

Additional observations from a re-analysis of the deposited data

How the results depend on the processing

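No tested member passed the adjusted threshold under any alternative run. Prf1, Gzmc, Nkg7 and Gzma kept a negative difference in all of theirs, from −0.97 to −0.50, −1.16 to −0.76, −1.09 to −0.29 and −2.61 to −0.82. Ctsw turned to 0.07 when the skeletal muscle score was a covariate, and Gzmk to 0.24 within slide 1; the cause was not tested. With 1 array left out, Prf1 ran from −0.82 to −0.66, Gzmc from −1.16 to −0.80, Nkg7 from −0.69 to −0.37, Ctsw from −0.74 to −0.42, Gzma from −2.56 to −1.21 and Gzmk from −0.34 to 0.01. The count over all genes, 5, was less stable: 8 with normexp under either scaling, 11 with quantile normalization, 15 with the array median, 2 without a filter, 9 with probes well above background on all 6 arrays, 1 with slide as a block, 15 with slide as a random block, 141 with age as a covariate and 0 when the muscle score was one. Leaving out WT replicate 1 gave 303, leaving out KO replicate 3 gave 88, leaving out KO replicate 1 gave 3, and leaving out any other array gave 2. The replicate numbers do not pair the skins, since deviations from group means correlated at −0.13, −0.04 and 0.08 for equal numbers; with the replicate block the count was 0. Gzma has no value under the filter that asks for all 6 arrays. No member is dim on every array of 1 group alone, so no bound was needed. Low signal limits Gzmb and Fasl, and the fit without a filter gave −0.43 for Gzmb (limma adjusted p = 0.798).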

Other observations

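Among the serpins that block granzymes inside cells, Serpinb9 and Serpinb6b differed by −0.25 and −0.27 with overlap between the groups (limma adjusted p = 0.505 and 0.504). Serpinb6a, also expressed in epithelia, lay the other way, at 6.93, 7.43 and 7.23 in KO skins against 7.08, 6.39 and 6.32 in WT skins, and WT replicate 1 lay among the KO values (difference 0.60, SE 0.24, limma adjusted p = 0.417). The caspase gene Casp8 and the granzyme B substrate gene Bid had differences of −0.22 and −0.23, and both overlapped between the groups.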
